A study of Mus musculus with 2 samples.

Results

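Macrophages, monocytes and dendritic-like cells were taken from droplet single-cell RNA counts of CD45+ leukocytes of the mouse cochlea by the RNA of a few marker genes. A barcode entered the macrophage arm with at least 5 UMIs (unique molecular identifiers, counted RNA molecules) of the complement genes C1qa, C1qb and C1qc together. A barcode without them entered the monocyte and dendritic arm with at least 5 UMIs of Csf1r, Ccr2 and Cd209a together. Barcodes of either arm stayed out with 300 or more UMIs of the neutrophil genes S100a8 and S100a9 per 10000, at least 3 of the plasmacytoid dendritic cell gene Siglech, at least 3 of the B cell gene Cd79a, at least 3 of the T cell genes Cd3e, Cd3d and Cd3g, or at least 5 of the basophil genes Mcpt8 and Prss34. Of 1556 barcodes, 1377 had at least 200 genes and at most 10% mitochondrial UMIs, 1285 of these carried 1 dominant hashtag, and 100 of the 1285 met the rule: 21 in the macrophage arm and 79 in the monocyte and dendritic arm.

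The 4 groups were a sham pool and pools taken on day 3, day 7 and day 14 after noise exposure. Each was 1 pool of cochleae from 6 mice, digested with Accutase, sorted for living CD45+ cells and marked with its own hashtag antibody. The control is named both as sham treated and as untreated in the labels, and is called sham here; strain, sex, age and the noise level are not given in the sources used here, and no transgene or drug is named. With 1 pool per condition there is no replicate check and no test: every interval below is a 95% interval for counting error only, and all ratios of noise days divide by the same sham pool. The macrophage arm held 4 sham, 9 day 3, 5 day 7 and 3 day 14 cells, and the monocyte and dendritic arm 27, 36, 8 and 8 cells in the same order.

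Tissue macrophages are phagocytes that clear dying cells and debris, and they make complement C1q, the recognition part of the classical complement cascade. They are kept alive by the receptor encoded by Csf1r, and in the cochlea they are known from the spiral ligament, the stria vascularis, the spiral ganglion and the basilar membrane. Classical monocytes leave the bone marrow and enter injured tissue by way of the chemokine receptor encoded by Ccr2, where they can take on macrophage genes. Dendritic cells present antigen on MHC class II, and the lectin encoded by Cd209a marks some type 2 and monocyte-derived dendritic cells.

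The cut for the macrophage arm fell in a wide gap, and the cut for the monocyte and dendritic arm did not. Of the barcodes carrying 1 hashtag, 1214 had no C1q UMI, 41 had 1 to 4, the highest value below the cut was 3 and the lowest above it was 19. The 21 macrophage arm cells held 37 to 202 C1q UMIs, with a median of 96. The sum of Csf1r, Ccr2 and Cd209a was exactly 3, 4, 5 and 6 UMIs in 9, 5, 5 and 6 barcodes, so that a few barcodes lay on either side of that cut, while the 79 kept cells had a median of 20 and a highest value of 57. These sums chose the members and are given as a description.

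**Figure D1:**
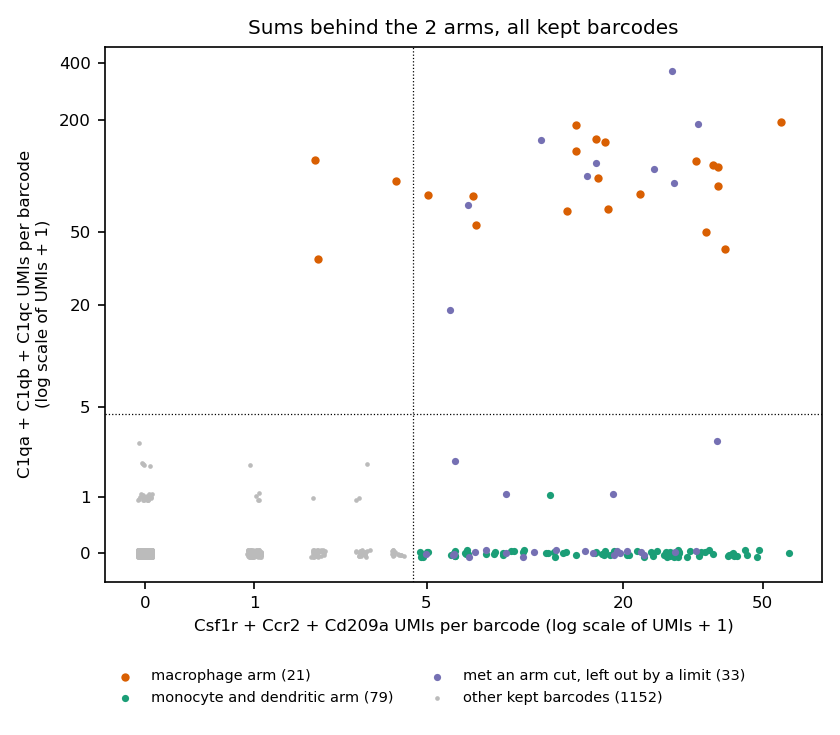
Sum of Csf1r, Ccr2 and Cd209a UMIs (x axis) and of C1qa, C1qb and C1qc UMIs (y axis) of each of the 1285 barcodes with 1 hashtag, on log scales of UMIs + 1; dotted lines are the cuts, and violet points met a cut and were left out by a limit on another cell type's genes. The 21 macrophage arm cells start at 37 C1q UMIs, far above the cut of 5, whereas the 79 cells of the other arm run down to the cut.

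The rule genes were also counted outside the arms, where free RNA and RNA made by the cells themselves cannot be told apart. All 21 macrophage arm cells held C1q UMIs by the rule, at a median depth of 13185 UMIs, against 3.27% (2.35 to 4.41, exact Clopper-Pearson) of the 1255 barcodes below the C1q cut at a median of 7359. Among the 1185 other barcodes, 11.1% held a UMI of Csf1r, 8.10% of Ccr2 and 0.928% of Cd209a. These 1185 include the 9 and 24 barcodes that met the cut of the macrophage or the other arm and were left out by a limit. The neutrophil gene S100a8 was present in all 100 cells at 260 counts per 1000000 UMIs (CPM), against 72579 CPM in the other barcodes. The part of free RNA in any difference below was not tested.

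The defining markers of the label were divided between the arms. Of the 21 macrophage arm cells, 11 held Ccr2 and 1 held Cd209a. All 21 macrophage arm cells held Csf1r, 17 held Adgre1 (the F4/80 antigen), 16 held the mannose receptor Mrc1, and none held the perivascular macrophage gene Lyve1, the NK cell gene Klrd1 or the hemoglobin and other red cell genes of the erythroid list. In the monocyte and dendritic arm, 77 of 79 cells held Ccr2, 49 held Csf1r and 12 held Cd209a. Cells with high RNA of NK cells (21), of myeloid progenitors (10) or of osteoclasts (1) also met its rule and go against the label. They are kept apart below.

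Depth differed between pools within the macrophage arm. Its cells had medians of 4401, 19574, 13185 and 4980 UMIs (sham, day 3, day 7, day 14), and those of the monocyte and dendritic arm 16111, 16636, 17274.5 and 16355. The macrophage arm held 260600 UMIs in all and the other arm 1571057. A low gene could therefore be missed more often in the sham and day 14 macrophage cells, and shares of cells are given below also after thinning every cell to 2000 UMIs.

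The shares of both arms among CD45+ barcodes had wide counting intervals. The macrophage arm made up 1.17% of sham (0.321 to 2.98), 1.63% of day 3 (0.750 to 3.08), 2.31% of day 7 (0.756 to 5.32) and 1.69% of day 14 barcodes (0.351 to 4.87). Its ratios to sham of 1.39, 1.97 and 1.44 had intervals that hold 1. The monocyte and dendritic arm made up 7.92% of sham (5.28 to 11.3), 6.53% of day 3 (4.62 to 8.93), 3.70% of day 7 (1.61 to 7.17) and 4.52% of day 14 barcodes (1.97 to 8.71). Its ratios to sham were 0.825 (0.487 to 1.41) on day 3, 0.468 (0.184 to 1.06) on day 7 and 0.571 (0.224 to 1.29) on day 14. No difference in share was detectable at these cell numbers.

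Cell by cell, the macrophage arm differed between pools in what its cells held beside C1q. With 4 cells in sham, no ratio to sham was formed for it. In the following, the cells of a pool are numbered from the lowest to the highest UMI total. C1qa stood at 41, 48, 19 and 59 UMIs in the 4 sham cells, at 35, 66, 69, 36, 45, 19, 0, 23 and 79 in the 9 day 3 cells, at 51, 69, 45, 57 and 79 in the 5 day 7 cells, and at 16, 30 and 43 in the 3 day 14 cells. The day 3 cell without C1qa had 32 UMIs of C1qb and 7 of C1qc. Relative to depth, C1qa was 9423 CPM in sham, 2235 on day 3, 4852 on day 7 and 6179 on day 14, and C1qb was 5586, 2361, 3256 and 3680 CPM. Sham was highest and day 3 lowest for both. In the mouse genome GRCm38 (GENCODE vM21) the C1q genes lie side by side on the minus strand of chromosome 4, C1qb at chr4:136880129-136886187, C1qc at chr4:136889804-136893065 and C1qa at chr4:136895917-136898803.

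**Figure D2:**
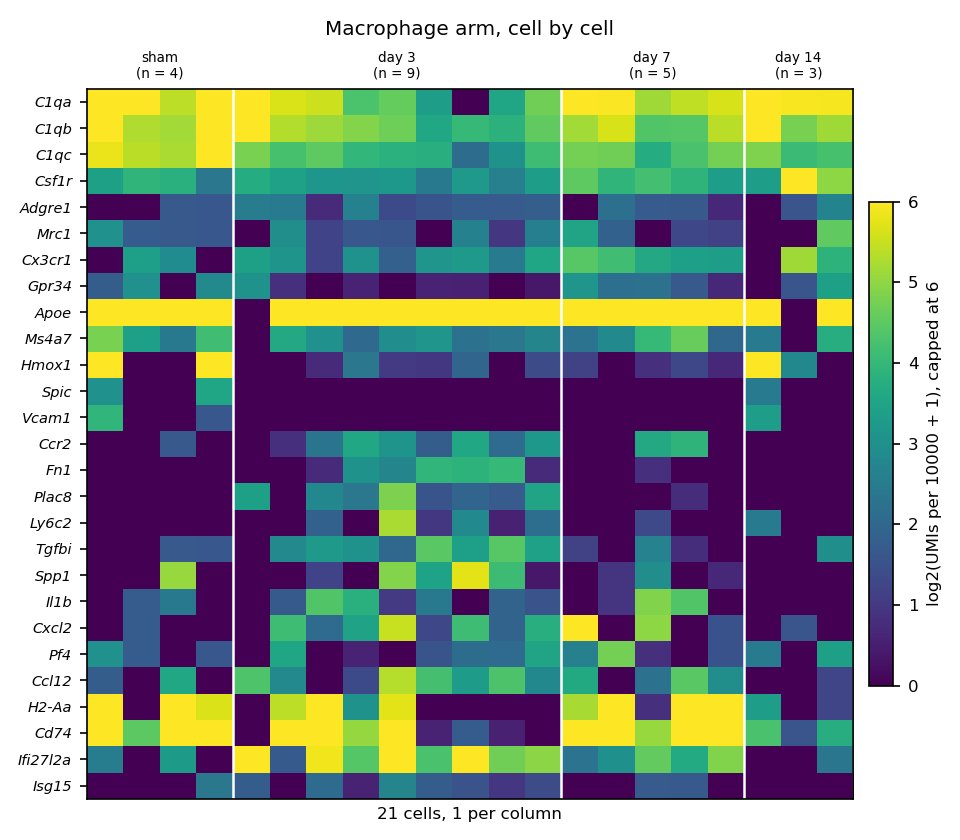
UMIs per 10000 of marker and response genes (down the page, colour on a log2 scale of the value + 1, capped at 6) in each of the 21 macrophage arm cells (across), in 4 sham, 9 day 3, 5 day 7 and 3 day 14 cells, ordered by UMI total within a pool. Hmox1, Spic and Vcam1 are bright in 2 sham and 1 day 14 cells, and Ccr2, Fn1 and Ifi27l2a in day 3 cells.

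Genes of iron-recycling macrophages stood in a few sham and day 14 cells. Hmox1, the heme-degrading enzyme, had 49, 0, 0 and 52 UMIs in the sham cells, 0, 0, 1, 8, 2, 2, 6, 0 and 5 in the day 3 cells, 1, 0, 1, 2 and 1 in the day 7 cells, and 37, 3 and 0 in the day 14 cells. The 3 cells above 20 UMIs were also the only ones of the arm with Spic, the transcription factor of red pulp macrophages (3, 5 and 1 UMIs), with Vcam1, an adhesion molecule of erythroblastic island macrophages (6, 1 and 2 UMIs), and with the iron exporter Slc40a1 (6, 4 and 4 UMIs). No day 3 or day 7 cell held a UMI of Spic, Vcam1 or Slc40a1, although most of these were deeper than the 3. The 3 cells had no Ccr2 and no Cx3cr1 UMI. Hmox1 reached at most 8 UMIs elsewhere in the arm.

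Monocyte genes stood beside C1q in cells of day 3 and day 7. Ccr2 had 0, 0, 1 and 0 UMIs in the sham cells, 0, 1, 6, 21, 15, 5, 23, 7 and 26 in the day 3 cells, 0, 0, 15, 19 and 0 in the day 7 cells, and 0 in each day 14 cell. At least 5 UMIs of Ccr2 were thus found in 7 of 9 day 3 and 2 of 5 day 7 cells, and in no sham or day 14 cell. Thinned to 2000 UMIs, the shares of cells with a Ccr2 UMI were 10.9%, 55.9%, 37.3% and 0% (sham, day 3, day 7, day 14), and without thinning 25%, 88.9%, 40% and 0%. In the other barcodes 3.91% to 4.63% of thinned cells held one. Fn1, fibronectin, was at 0, 0, 1, 14, 11, 30, 29, 33 and 2 UMIs in the day 3 cells, at 1 UMI in 1 day 7 cell, and at 0 in all sham and day 14 cells. Thinned shares of cells with an Fn1 UMI were 0%, 51.0%, 3.03% and 0%, and so few sham and day 14 cells leave the share there nearly unbounded.

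Some of the same day 3 cells also held RNA of Ly6c2, Spp1 and chemokine genes. Ly6c2, a surface protein of classical monocytes, reached 72 UMIs in day 3 cell 5 and at most 13 in any other cell of the arm. Spp1, osteopontin, stood at 56, 21, 111 and 35 UMIs in day 3 cells 5 to 8, and outside them at no more than 15, in a sham cell. The monocyte-attracting chemokine Ccl7 had 33, 11, 46 and 1 UMIs in day 3 cells 6 to 9 and 1 UMI in all other cells together. The neutrophil chemokine Cxcl2 reached 87 UMIs in a day 3 cell and 111 in a day 7 cell, and had 1 UMI or none in each sham and day 14 cell.

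MHC class II split the arm, and the split was not the same as that by Ccr2. H2-Aa had 39, 0, 38 and 24 UMIs in the sham cells, 0, 55, 157, 14, 103, 0, 0, 0 and 0 in the day 3 cells, 28, 90, 1, 148 and 111 in the day 7 cells, and 2, 0 and 1 in the day 14 cells. At least 20 UMIs were present in 3 sham, 3 day 3, 4 day 7 and 0 day 14 cells. The 4 deepest day 3 cells held Ccr2 (5 to 26 UMIs) and no H2-Aa, whereas day 3 cells 3, 4 and 5 held both. Apoe, the lipid carrier that macrophages secrete, ranged from 21 to 916 UMIs in 19 cells, and was 0 in day 3 cell 1 and day 14 cell 2.

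Of the genes best known from microglia, 1 was found in most cells of the macrophage arm and others in few. Cx3cr1, the fractalkine receptor, had 0, 4, 3 and 0 UMIs in the sham cells, 4, 10, 2, 14, 5, 16, 18, 10 and 34 in the day 3 cells, 16, 19, 15, 13 and 15 in the day 7 cells, and 0, 17 and 10 in the day 14 cells. Tmem119, a membrane protein that marks microglia in the mouse brain, had 21 UMIs in day 14 cell 2, which also held 7 UMIs of P2ry12, 1 of Sall1 and 34 of Csf1r, and no Apoe, Ms4a7 or H2-Aa. Day 3 cells 6 and 8 held 13 and 10 UMIs of Tmem119 together with Ccr2, Fn1 and Spp1. Sall1, the microglial transcription factor, had no UMI in the other 20 cells.

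Compared with the monocyte and dendritic arm, the macrophage arm was richer in lysosomal, scavenging and iron genes and poorer in cell cycle genes. The arms were cut from measured genes, so these ratios describe the cut and carry no weight as findings. Of 7706 genes whose UMIs in the 2 arms summed to 20 or more, 9.68% were at least 2-fold higher in the macrophage arm (746) and 18.7% at least 2-fold lower (1443), and 3.75% and 11.8% were so with the same direction in all 4 pools. Apoe averaged 27053 CPM in the macrophage arm and 2490 CPM in the other (ratio 10.9, 10.4 to 11.3). Lysosomal genes were higher for 16 of 22, among them the protease Lgmn with 1243 CPM in the macrophage arm and 202 CPM in the other (6.14, 5.25 to 7.19). Phagocytic and scavenger receptors were higher for 12 of 15 measured, among them Mrc1 (11.4, 7.84 to 16.7), the apoptotic cell receptor Mertk (12.7, 5.49 to 31.9) and the high-affinity Fc receptor Fcgr1 (7.32, 5.72 to 9.39). Iron and heme genes were higher for 6 of 7 measured, with Hmox1 at 18.6 (13.7 to 25.7), where 3 cells gave most of its 170 UMIs.

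A transcription factor, microglial genes and interferon response genes were also uneven between the arms. Of 13 measured lineage transcription factors, 5 were higher in the macrophage arm, among them the macrophage regulator Maf (7.08, 5.40 to 9.30), and 1 was lower. The median log2 ratio of that list was -0.13. All 6 measured microglial genes were higher, with Tmem119 at 34.4 (17.4 to 75.5) and Gpr34, a lysophospholipid receptor, at 19.5 (10.3 to 39.5). The transcription factor Bhlhe41 (37.7), the leukotriene synthase Ltc4s (27.1) and Ccl12 (12.7) were among the 10 leading genes with the same direction in 4 pools. Of 17 measured interferon response genes 15 were higher, and the median log2 ratio of the list was 1.66, against -0.24 over all measured genes. This ratio sums over pools of unequal weight. Day 3 gave 166441 of the 260600 UMIs of the macrophage arm and 752507 of the 1571057 of the other. At least 30 UMIs of the list per 10000 stood in 0, 8, 2 and 0 macrophage arm cells (sham, day 3, day 7, day 14). In the other arm 2, 13, 1 and 0 cells reached that level. All 8 MHC class II genes stayed under 2-fold in either direction, with H2-Aa at 3112 CPM in the macrophage arm and 1770 CPM in the other.

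Genes lower in the macrophage arm included those of NK cells, progenitors, dividing cells, monocytes and dendritic cells. The granule proteases Gzma and Ctsg and the NK cell genes Nkg7, Klrd1, Xcl1 and Ncr1 had no UMI in the macrophage arm, against 653, 589, 580, 290, 276 and 272 UMIs in the monocyte and dendritic arm. Mpo, Prtn3 and Elane, enzymes of neutrophil granules made in progenitors, had 2, 1 and 1 UMIs in the macrophage arm, against 1862, 1358 and 802 in the monocyte and dendritic arm. Of 19 cell cycle genes 16 were lower (median log2 ratio -3.07), with Mki67 at 1 UMI in the macrophage arm, against 288 in the monocyte and dendritic arm. Classical monocyte genes were lower for 7 of 10, although Ccr2 (0.690, 0.574 to 0.823) and Fn1 (0.782, 0.642 to 0.946) stayed within 2-fold over all pools together. The pools differed in this. By pool (sham, day 3, day 7, day 14), Fn1 was held by 0, 7, 1 and 0 macrophage arm cells and 11, 21, 3 and 4 of the other arm. Ccr2 was held by 1, 8, 2 and 0 macrophage arm cells and 25, 36, 8 and 8 of the other arm. Type 1 dendritic cell genes were lower for 4 of 9 and type 2 dendritic cell genes for 4 of 7. Without the NK, progenitor and osteoclast gene-rich cells, the ratio was 1.59 (0.143 to 11.1) for Mpo and 3.17 (0.590 to 17.0) for the chemokine Ccl5, and at most 2.38 for Nkg7, which has no UMI in the macrophage arm. For these 3 genes no lower value was shown without those cells, whereas over the 20 settings run Prtn3 had ratios of 0.00374 to 0.138 and the cell cycle list medians of -3.22 to -1.59. Elane (0.00613 to 0.634) and Ctsg (0.0251 to 0.56) came within 2-fold at the upper end of their ranges over the settings. Over all genes, 887 were still at least 2-fold lower without those cells.

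The 79 cells of the monocyte and dendritic arm fell into ranges of marker RNA, set after the values had been seen; they are ranges and not types. At least 20 UMIs of a T and NK cell list were held by 21 cells (lowest inside 25, highest outside 10), at least 200 UMIs of H2-Aa, H2-Ab1, H2-Eb1 and Cd74 by 18 (206 and 101), at least 20 UMIs of a myeloid progenitor list by 10 (20 and 17), and at least 50 UMIs of an osteoclast list by 1 (198 and 7). Within a factor of 2 of the 4 thresholds lay 6, 4, 2 and 0 cells. The remaining 29 cells met none of them. By pool (sham, day 3, day 7, day 14) the NK gene-rich range held 9, 8, 2 and 2 cells, the MHC class II-rich range 5, 9, 3 and 1, the remaining cells 10, 13, 2 and 4, and the progenitor gene-rich range 2, 6, 1 and 1.

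**Figure D3:**
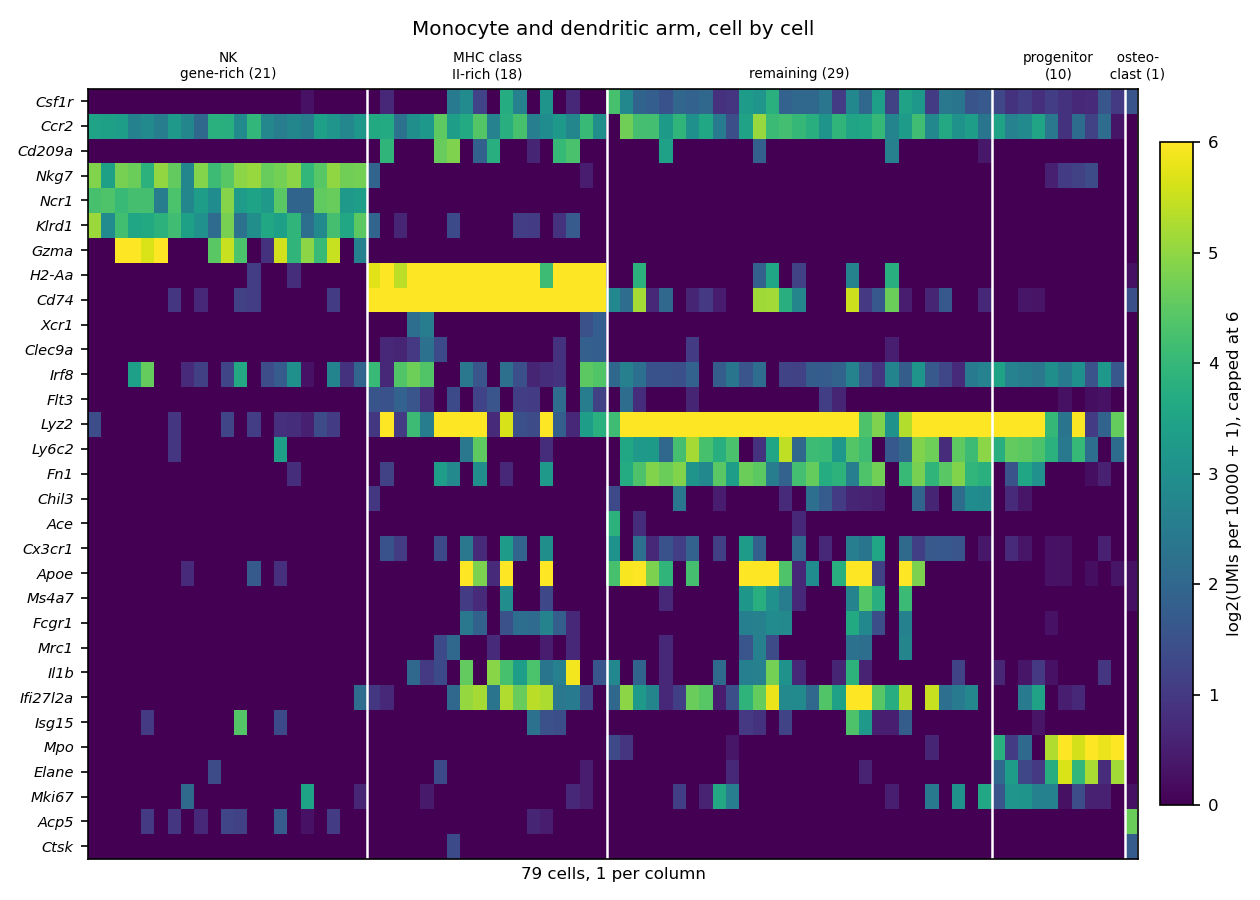
UMIs per 10000 of marker and response genes (down the page, colour on a log2 scale of the value + 1, capped at 6) in each of the 79 cells of the monocyte and dendritic arm (across), grouped by range and, within a range, by pool in the order sham, day 3, day 7, day 14. Ccr2 runs through every range but the 1 osteoclast gene-rich cell. Nkg7 and Ncr1 are shown for the NK gene-rich range (21 cells) and H2-Aa and Cd74 for the MHC class II-rich range (18 cells). Lyz2 and Fn1 are shown for the remaining cells (29) and Mpo for the progenitor gene-rich range (10 cells). They are not confined to these ranges: Fn1 was held by 27 remaining, 5 progenitor gene-rich, 6 MHC class II-rich and 1 NK gene-rich cells.

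The remaining cells carried the genes of classical monocytes. The lysozyme gene Lyz2 averaged 22317 CPM, Fn1 1556 CPM and Ly6c2 1454 CPM over the 29 cells, against 7665, 4.69 and 455 CPM in the other barcodes. All 29 held Csf1r, 28 held at least 5 UMIs of Ccr2, 26 at least 5 of Fn1 and 24 at least 5 of Ly6c2. Csf1r and Ccr2 are genes of the arm's rule. The exception for Ccr2 was sham cell 1 of this range, with 12 Csf1r, 9 Ace and 5 Cx3cr1 UMIs and no Fn1 or Ly6c2; Ace is a marker of nonclassical monocytes. At least 5 UMIs of the proliferation gene Mki67 stood in 2 sham, 0 day 3, 1 day 7 and 2 day 14 cells.

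The MHC class II-rich cells held marker genes of both kinds of classical dendritic cell, in different cells. The type 1 genes Xcr1 and Clec9a, a chemokine receptor and a receptor for dead cells, summed to at least 5 UMIs in 4 cells (2 sham, 0 day 3, 1 day 7, 1 day 14). At least 3 UMIs of Cd209a stood in 7 cells (1, 4, 2 and 0 by pool), and no cell met both. Neither was met by 7 cells (5 on day 3 and 2 in sham), and these 5 day 3 cells held 9 to 31 UMIs of Ccr2 and 0 to 21 of Csf1r. Irf8, the regulator of type 1 dendritic cells, had 16, 1, 37, 49 and 58 UMIs in the 5 sham cells, 0, 0, 4, 3, 0, 6, 3, 1 and 2 in the 9 day 3 cells, 1, 0 and 59 in the 3 day 7 cells, and 48 in the day 14 cell.

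The NK gene-rich cells entered through Ccr2 alone. Of the 21, 20 held Ccr2 and no UMI of Csf1r or Cd209a, and Csf1r had a single UMI among them. Ccr2 averaged 675 CPM there, 988 CPM in the MHC class II-rich and 1070 CPM in the remaining cells. The killer lectin-like receptor gene Klrd1 (1102 CPM), the granule gene Nkg7 (2209 CPM) and the NK receptor Ncr1 (1086 CPM) were present in all 21, while Lyz2 had 10 UMIs in all. Nkg7 and Ncr1 belong to the list that set this range, and Klrd1 does not. The 10 progenitor gene-rich cells were the deepest, with a median of 44056.5 UMIs, and held Mpo at 4187 CPM, Elane in 10 of 10, and Csf1r and Ccr2 in 10 of 10. Mpo and Elane belong to the list that set that range, and Csf1r and Ccr2 to the rule of the arm. One sham cell of 50745 UMIs held 123 UMIs of Acp5 and 12 of Ctsk, enzymes of bone-resorbing osteoclasts, with 10 of Csf1r. Acp5 and Ctsk are in the osteoclast list that set it apart.

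On day 3 the monocyte and dendritic arm held more RNA of interferon response genes, of chemokines and of macrophage receptors than in sham. The comparison rests on 36 day 3 and 27 sham cells with 752507 and 498187 UMIs. Of 6598 genes whose UMIs in the 2 pools summed to 20 or more, 5.52% were at least 2-fold higher (364) and 3.71% at least 2-fold lower (245), or 9.23% in either direction. Interferon response genes were at least 2-fold higher for 14 of 15 measured members of a list of 19, with a median log2 ratio of 2.53 against -0.02 over all measured genes; a member at 0 in one pool enters at the bound that 3 UMIs set. The lists were written for these cell types with earlier results of these data known. Zbp1, a nucleic acid sensor, was the one below 2-fold (1.94, 1.01 to 3.96).

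Single interferon genes showed how many cells carried the difference. Ifi27l2a, an interferon-induced gene of the Ifi6 family, was at 1802 CPM in 25 of 36 day 3 cells and 311 CPM in 12 of 27 sham cells (5.79, 4.9 to 6.88). Isg15, the ubiquitin-like modifier, had 95 UMIs in 13 day 3 cells and 1 UMI in 1 sham cell (62.9, 11.0 to 2510). Oasl2, of the oligoadenylate synthetase family, had 60 UMIs on day 3 and 2 in sham (19.9, 5.26 to 168). Bst2, tetherin, was in 27 day 3 and 16 sham cells (3.15, 2.21 to 4.6). Ifit1 and Ifit3, RNA-binding antiviral proteins, had 25 UMIs each on day 3 and none in sham, at least 5.52-fold higher, and the interferon brake Usp18 had 27 on day 3 and none in sham, at least 5.96-fold higher. The largest share of any of these that came from 1 day 3 cell was 36.8%, for Isg15.

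The promoters of interferon genes are shown because these members were higher together. The windows are the 250 bases before the RefSeq start on GRCm38.p6, each printed 5′ to 3′ on its gene's strand, and capitals mark matches, on either strand and overlaps joined, to GAAA, any 2 bases and GAAA again, a core that interferon-stimulated response elements share. Isg15 (chr4:156200819-156201068, minus strand) has 3 matches, Ifit3 (chr19:34583279-34583528, plus strand) 2 and Bst2 (chr8:71537473-71537722, minus strand) 2.
Isg15: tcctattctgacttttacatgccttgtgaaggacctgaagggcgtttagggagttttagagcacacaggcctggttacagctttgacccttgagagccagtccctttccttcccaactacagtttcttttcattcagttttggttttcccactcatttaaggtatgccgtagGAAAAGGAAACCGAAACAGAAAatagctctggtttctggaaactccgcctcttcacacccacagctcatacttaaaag
Ifit3: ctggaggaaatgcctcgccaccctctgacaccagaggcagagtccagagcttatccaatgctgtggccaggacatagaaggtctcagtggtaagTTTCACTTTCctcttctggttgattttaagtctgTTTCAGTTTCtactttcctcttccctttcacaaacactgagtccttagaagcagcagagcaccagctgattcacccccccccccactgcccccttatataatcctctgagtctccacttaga
Bst2: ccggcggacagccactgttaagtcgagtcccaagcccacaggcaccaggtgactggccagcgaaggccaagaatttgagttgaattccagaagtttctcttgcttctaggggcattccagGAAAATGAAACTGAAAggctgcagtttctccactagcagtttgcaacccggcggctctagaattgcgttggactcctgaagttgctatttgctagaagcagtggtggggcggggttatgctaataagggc
This motif occurred in 6 of 12 interferon list members with a promoter in the RefSeq table, and in 936 of 27025 promoters in all (3.46%). It occurred in 2 of 9 macrophage list promoters and in 0 of 7 of the classical monocyte list. GAGGAA, a core bound by the myeloid factor PU.1, was found in 7 of 9 macrophage, 4 of 7 classical monocyte and 5 of 12 interferon promoters, and in 25.9% of all. A match is a description of the window and does not show a bound site.

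Summed over the 19 list genes, the interferon response was spread over the macrophage arm, the remaining cells and the MHC class II-rich cells. Per 10000 UMIs, the 4 sham macrophage cells held 8.37 to 11.9, the 9 day 3 cells 97.0, 4.53, 106, 36.5, 238, 43.3, 109, 53.8 and 78.7, the 5 day 7 cells 6.44, 8.88, 72.1, 27.1 and 55.1, and the 3 day 14 cells 9.2, 0 and 6.9. All day 3 cells but the second lay above every sham and day 14 cell. Cells with at least 30 per 10000 numbered 0, 8, 2 and 0 in the macrophage arm (sham, day 3, day 7, day 14), 2, 6, 1 and 0 among the remaining cells, and 0, 6, 0 and 0 among the MHC class II-rich cells. In the NK gene-rich range 1 of 8 day 3 and 0 of 9 sham cells reached that value, and in the progenitor gene-rich range 0 of 10. The other barcodes had medians of 1.94 on day 3 and 1.67 in sham.

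**Figure D4:**
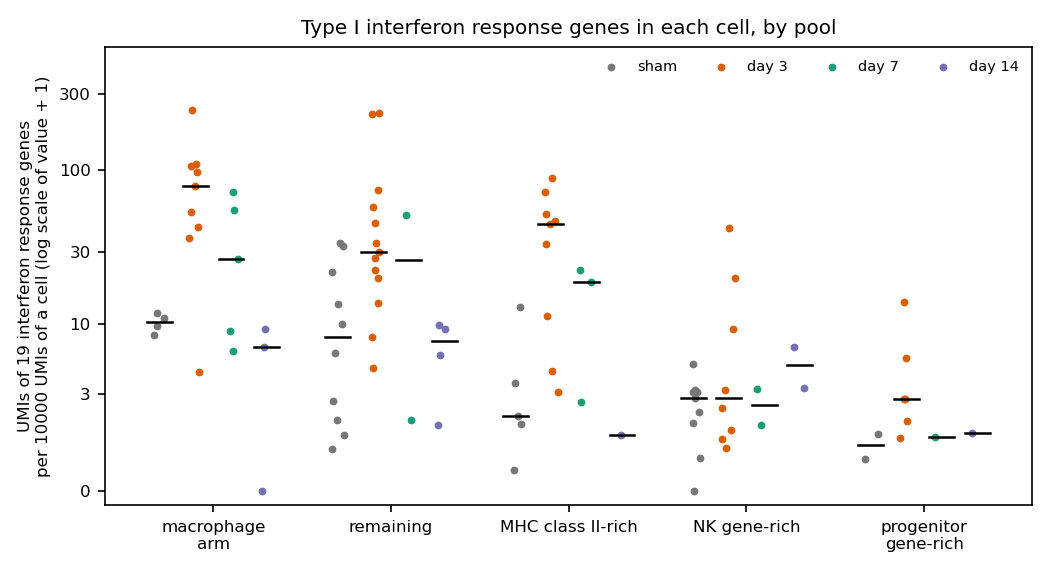
UMIs of 19 type I interferon response genes per 10000 UMIs of a cell (y axis, log scale of the value + 1) in each cell, by arm or range and by pool, with a line at each pool's median. In the macrophage arm the median was 10.3 in sham, 78.7 on day 3, 27.1 on day 7 and 6.90 on day 14; in the NK gene-rich range it was 2.81, 2.76, 2.45 and 5.12.

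Chemokine genes were the second large group on day 3. At least 2-fold higher were 9 of 13 measured members and 1 was lower, with a median log2 ratio of 2.93. Ccl2, the main ligand of Ccr2, was at 435 CPM in day 3 and 26.1 CPM in sham cells (16.7, 9.60 to 31.6). Ccl7 and Ccl12, which also signal through Ccr2, had 142 and 130 UMIs on day 3 and none in sham, at least 31.3-fold and 28.7-fold higher. Ccl7 came from 5 of 36 cells and Ccl12 from 7. Cxcl2 had 272 UMIs in 12 day 3 cells and 3 in 2 sham cells (60.02, 20.3 to 293), and platelet factor 4, Pf4, 144 in 5 day 3 cells and 1 in 1 sham cell (95.3, 16.8 to 3791). The top day 3 cell gave 47.9% of the Ccl7, 42.3% of the Ccl12, 49.3% of the Cxcl2 and 42.4% of the Pf4 UMIs. Of the day 3 UMIs, 142 of Ccl7, 127 of Ccl12 and 143 of Pf4 stood in the remaining cells. All 53 UMIs of Ccl8 came from 1 day 3 cell. Ccl5, the one that was lower (0.273, 0.228 to 0.325), is a gene of NK cells, and 436 of its 437 sham UMIs stood in the NK gene-rich range. With arm cuts of 10 UMIs, which leave out most of that range, its ratio was 52.15 (9.14 to 2081). At the cut of 5 UMIs, 178 of its 180 day 3 UMIs stood in the NK gene-rich range. A single cell gave 51.7% of the 180.

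Receptors, lipid genes and inflammatory genes followed on day 3. Fcgr1 had 117 UMIs in 15 of 36 day 3 cells and none in 27 sham cells, at least 25.8-fold higher. The scavenger receptors Stab1 (31.1, 5.32 to 1255), Mrc1 (28.5, 4.84 to 1150) and Msr1 (2.95, 1.60 to 5.88) were higher, as were 6 of 11 measured phagocytic receptors in all, while the integrin subunit Itgav was lower (0.342, 0.174 to 0.644). Apoe stood at 4771 CPM in 21 day 3 cells and 550 CPM in 8 sham cells (8.67, 7.67 to 9.84). Spp1 stood at 712 CPM on day 3 and 32.1 CPM in sham (22.2, 13.5 to 39.1). Of 12 measured NF-kB target genes 4 were at least 2-fold higher and 0 lower, with the cytokine Il1b at 327 CPM on day 3 and 56.2 CPM in sham (5.82, 3.93 to 8.93) and its antagonist Il1rn at 22 UMIs on day 3 and 1 in sham. All 12 glycolysis genes and 7 of 8 MHC class II genes stayed within 2-fold.

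Several day 3 differences of the whole arm are given beside its make-up, whose part in them was not tested. All 6 progenitor genes were at least 2-fold higher, with Mpo at 1641 CPM on day 3 and 108 CPM in sham (15.1, 11.5 to 20.3). The progenitor gene-rich range, which was cut by the same genes, held 6 day 3 and 2 sham cells. Type 1 dendritic cell genes were lower for 4 of 6 measured, with Xcr1 at 0 UMIs on day 3 and 21 in sham (at most 0.0946 of sham), and the sham UMIs came from 2 cells. The genes with the lowest ratios by their intervals were the ribonuclease genes Rnase2a (0.0864) and Ear2 (0.106), the surface gene Cd24a (0.110) and the mitotic kinase Pbk (0.147), at 3 to 6 UMIs on day 3 and 23 to 27 in sham.

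Other lists of the day 3 comparison, whose background was 9.23% of genes past 2-fold, are given as counts. Among marker lists, macrophage genes were higher for 3 of 8 measured, perivascular macrophage genes for 4 of 6 and microglial genes for 3 of 3, with none lower, and classical monocyte genes were higher for 1 and lower for 1 of 10. Type 2 dendritic cell genes were higher for 2 and lower for 1 of 7, migratory dendritic cell genes lower for 1 of 3, T and NK cell genes lower for 1 of 5, and osteoclast genes lower for 3 of 3, and the osteoclast gene-rich cell was in sham. Nonclassical monocyte (4 measured), red pulp macrophage (3), neutrophil (7), B cell (1) and melanocyte (1) genes had none past 2-fold, 1 of 2 plasmacytoid dendritic cell genes was higher, and no basophil, erythroid, endothelial or other cochlear gene was measured. Among the other lists, lysosome genes were higher for 5 of 22, complement genes for 3 of 9, immediate early genes for 4 of 16, chemokine receptors for 2 of 6, lineage transcription factors for 2 of 13 and iron genes for 1 of 6. Lipid genes were higher for 4 and lower for 2 of 10, with the lipase Lpl at 0.0423 (0.0084 to 0.131), while growth factor receptors were lower for 1 of 7 and trophic and matrix factors for 2 of 6.

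Among the remaining cells, 13 on day 3 and 10 in sham, 5 of 8 measured macrophage genes were at least 2-fold higher on day 3 and 1, Lyz2, was lower, while cell cycle genes were lower. Of 3054 measured genes 9.56% were at least 2-fold higher and 8.35% at least 2-fold lower. Interferon response genes were higher for 10 of 11 (median log2 ratio 3.06), and Ifi27l2a stood at 4066 CPM in 13 of 13 day 3 cells and 854 CPM in 10 of 10 sham cells (4.76, 4.01 to 5.69). The membrane gene Ms4a7, found in macrophages, had 161 UMIs in 9 day 3 cells and 1 UMI in 1 sham cell (127, 22.5 to 5052). C3ar1, the receptor of the complement fragment C3a, had 58 UMIs in 8 day 3 cells and none in sham, at least 15.3-fold higher. Rgs1 and the chemokines Pf4, Ccl7 and Ccl12 had no UMI in sham and were at least 32.6-fold, 37.6-fold, 37.4-fold and 33.4-fold higher.

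Lysosomal genes were higher with them. Of 22 lysosome genes 11 were at least 2-fold higher in the remaining cells of day 3, with Lgmn at 1128 CPM on day 3 and 39.1 CPM in sham (28.9, 13.8 to 72.6) and cathepsin D, Ctsd, at 1260 CPM on day 3 and 151 CPM in sham (8.36, 5.63 to 12.9), detected in all 13 day 3 and all 10 sham cells. Apoe was at 12128 CPM in day 3 and 1517 CPM in sham cells, and Trem2, the lipid-sensing receptor, at 397 CPM on day 3 and 16.7 CPM in sham (23.7, 7.85 to 117). Classical monocyte genes were at least 2-fold lower for 3 of 10 and higher for none: the proteoglycan gene Vcan (0.404) was among the 3, while Fn1 (0.884, 0.751 to 1.04), Ly6c2 (0.682) and Ccr2 (1.33) stayed within 2-fold. Lyz2 was 13846 CPM on day 3 and 27972 CPM in sham (0.495).

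The macrophage genes and Fcgr1 stood in the same day 3 cells. Fcgr1 had 5, 6, 8, 9, 0, 0, 0, 0, 21, 12, 4, 0 and 13 UMIs in the 13 remaining day 3 cells, and Ms4a7 8, 15, 9, 7, 1, 0, 0, 0, 10, 41, 30, 0 and 40. Lyz2 ran the other way, at 115, 188, 288, 117, 373, 584, 408, 637, 218, 38, 64, 17 and 96 UMIs. The 8 cells with Fcgr1 thus held 38 to 288 UMIs of Lyz2, against 373 to 637 in 4 of the 5 cells without it, and 17 in the fifth, a cell with 12 Cd209a UMIs. The 10 sham cells held no Fcgr1, 1 Ms4a7 UMI in all, and 328 to 698 UMIs of Lyz2 in 9 of them. The 6 day 7 and day 14 cells held no Fcgr1 and no Ms4a7, and 268 to 749 UMIs of Lyz2.

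Cell cycle genes were lower for 10 of 13 measured in the remaining day 3 cells (median log2 ratio -2.86), but few cells carried them. Mki67 had 1 UMI on day 3 and 48 in sham (0.0165, 0.000408 to 0.0961), and 45 of the 48 came from 2 of the 10 sham cells. The chromatin gene Hmgb2, at 366 CPM in 11 day 3 cells and 1545 CPM in 10 sham cells (0.237, 0.183 to 0.303), was found in more cells, and 1 sham cell gave 44.4% of its sham UMIs. The replication genes Atad2 (0.113) and Dna2 (0.117), the histone gene Hist1h4d (0.118) and Cytip (0.221) were also lower. In the whole arm 3 cell cycle genes were higher and 1 was lower of 19 measured, with a median of -0.06.

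In the MHC class II-rich cells, 9 on day 3 and 5 in sham, 14.8% of 1619 measured genes were at least 2-fold higher and 8.15% at least 2-fold lower. Apoe had 831 UMIs in 5 of 9 day 3 cells and none in sham (at least 198-fold higher), and Ifi27l2a 372 UMIs in 8 day 3 and 2 in 2 sham cells (133, 36.6 to 1103). Macrophage list genes were higher for 5 of 6 measured, with Fcgr1 at 38 UMIs on day 3 and none in sham (at least 9.06-fold higher) and Csf1r at 61 UMIs on day 3 and 1 in sham (43.6, 7.54 to 1751). Csf1r is also a gene of the arm's rule, so its ratio is given as a description only. All 6 measured type 1 dendritic cell genes were lower, Irf8 at 144 CPM on day 3 and 1704 CPM in sham (0.0844, 0.0495 to 0.136) in 6 of 9 and 5 of 5 cells. The general dendritic cell gene Cst3, cystatin C, was lower too (0.434, 0.402 to 0.468) in all cells of both pools. Of 7 measured MHC class II genes, some of which set the range, 1 passed 2-fold. The other genes named by rule were the stress gene Ier3 (53.6) and the signalling regulator Rgs1 (24.1), both higher on day 3, and Crip1 (0.362), Lsp1 (0.372) and Tmsb10 (0.420), lower.

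In the NK gene-rich cells, 8 on day 3 and 9 in sham, 7.29% of 1509 measured genes were at least 2-fold higher and 5.7% at least 2-fold lower. The serpin gene Serpina3g (4.88, 2.18 to 12.9) was the leading gene by its interval, followed by Ddost (6.09), Gspt1 (5.30), Mrpl23 (5.30) and Psmc2 (3.44), while Rgs1 (0.25), Traf1 (0.235), Samsn1 (0.199) and Mier1 (0.159) were lower. Ccl5 was at 1553 CPM on day 3 and 4790 CPM in sham (0.324, 0.271 to 0.387), with 7 cells in each. Cell cycle genes were higher for 9 of 12, and 1 day 3 cell of 45662 UMIs gave all 46 day 3 UMIs of Mki67, against 5 UMIs in sham, all from 1 cell. Of the interferon response genes 1 was measured there, Zbp1, a sensor of nucleic acids, and it was higher, with 16 UMIs in 6 day 3 cells and 5 UMIs in 3 sham cells (2.54, 0.890 to 8.87).

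**Figure D5:**
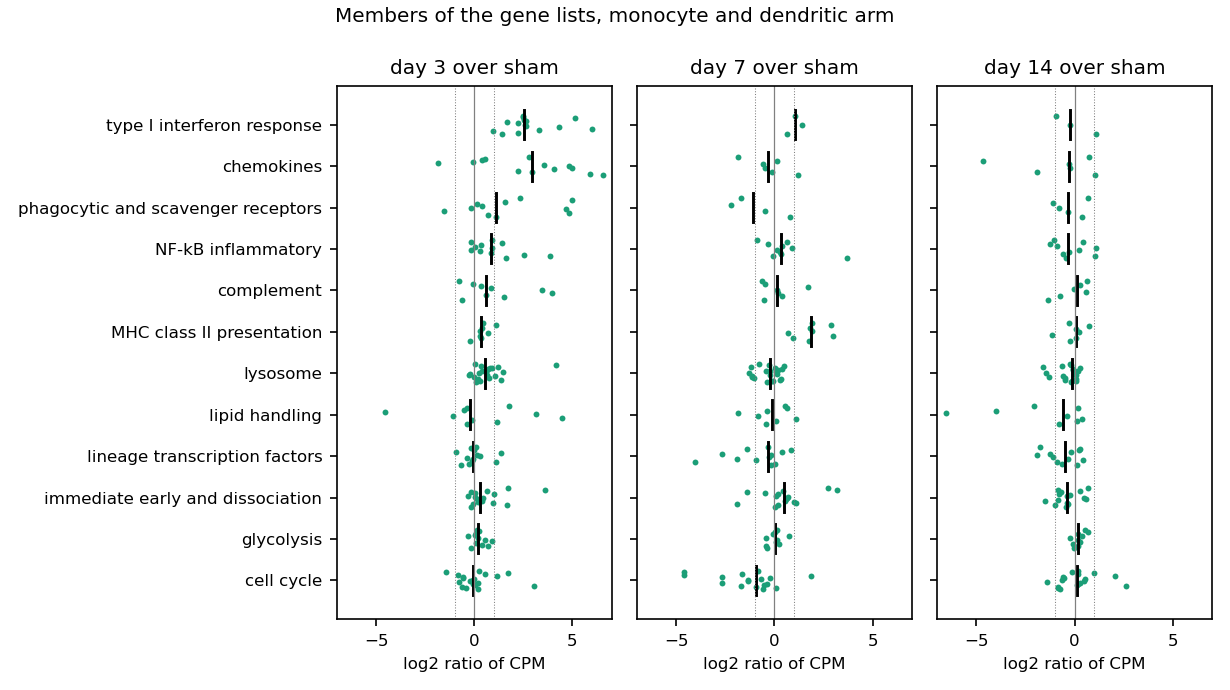
Log2 ratio of CPM (x axis) of day 3, day 7 and day 14 over sham in the monocyte and dendritic arm, 1 point for each measured member of 12 gene lists (down the page); vertical bars are list medians, dotted lines mark 2-fold, and a member at 0 UMIs in one pool is drawn at its bound. The interferon list median was 2.53 on day 3 (15 members), 1.06 on day 7 and -0.23 on day 14 (3 members each).

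On day 7 the arm held 8 cells, against 27 in sham, and MHC class II genes led. Of 4509 measured genes 4.24% were at least 2-fold higher and 10.4% at least 2-fold lower. H2-Eb1 was at 4172 CPM in 3 day 7 cells and 560 CPM in 6 sham cells (7.45, 6.46 to 8.61), and 6 of 8 class II genes passed 2-fold (median log2 ratio 1.85). The MHC class II-rich range held 3 of 8 day 7 and 5 of 27 sham cells. Within that range H2-Aa had 188, 290 and 202 UMIs in the 3 day 7 cells and 54, 123, 77, 159 and 202 in the 5 sham cells. Of 6 measured type 2 dendritic cell genes 5 were higher, with the lectin gene Mgl2 at 83 UMIs in 3 day 7 cells and none in sham, at least 91.1-fold higher, where 86.7% came from 1 cell. Egr1, an immediate early gene, was at 463 CPM in 6 of 8 day 7 cells and 70.3 CPM in 11 of 27 sham cells (6.59, 4.33 to 10.2). Cd74 (3.82), H2-Ab1 (3.71) and H2-Aa (3.53) completed the 5 leading genes. Cell cycle genes were lower for 8 of 17 and higher for 1, with Top2a at 2 UMIs on day 7 and 162 in sham (0.0407, 0.00488 to 0.149); without the limit on S100a8 and S100a9 its ratio was 1.03, and the median of the cell cycle genes was 0.23, against -0.92 with it. The linker histone gene Hist1h1b and the serpin gene Serpinb6b had no UMI on day 7, against 92 and 47 in sham, and Rrm2 and Pclaf of DNA synthesis stood at 0.0407 and 0.159. Without that limit Hist1h1b stood at 0.651 and Pclaf at 0.793, within 2-fold. Ifi27l2a was at 648 CPM on day 7 and 311 CPM in sham (2.08, 1.60 to 2.70), with 82.7% of its day 7 UMIs from 1 cell. Chemokines had a median log2 ratio of -0.31.

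On day 14 the arm held 8 cells, against the same 27 in sham. Of 4556 measured genes 4.02% were at least 2-fold higher and 8.6% at least 2-fold lower. Apoe had 1 UMI in 8 day 14 cells, against 274 UMIs in 8 of the 27 sham cells (0.0108, 0.000271 to 0.0604). With barcodes of at least 60% in the top hashtag taken in, the Apoe ratio was 0.670 and within 2-fold. None of the 4 remaining cells of day 14 held Apoe, whereas 6 of the 10 of sham did. The chemokine Ccl3 had 1 UMI on day 14 and 75 in sham (0.0393, 0.000981 to 0.226). All 5 measured progenitor genes were higher, and 1 cell gave all 328 UMIs of Mpo. Interferon response genes (1 of 3 measured higher, median log2 ratio -0.23) and MHC class II genes (median 0.06 over 7) lay near sham. The class II median rested on single cells: 1 of the 8 day 14 cells was MHC class II-rich, and without the top cell of each gene the median was -4.00. The genes with the highest ratios by their intervals were Fam91a1 (6.22, 2.68 to 15.6) and the growth factor gene Nrg1 (4.98, 2.40 to 10.8), each in 5 of 8 day 14 cells, with the mitotic genes Ccnb2 (4.12) and Cdc20 (4.42) and the transport gene Ergic2 (3.1). Dck had no UMI in day 14 cells, against 32 in sham, and Gzma (0.0842) and Ccl5 (0.263) were lower and stood above sham with arm cuts of 10 UMIs.

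The limits left out 9 barcodes with C1q and 24 with Csf1r, Ccr2 or Cd209a, and those with C1q were looked at because Siglech, which limits plasmacytoid dendritic cells, is also a gene of mouse microglia. Of the 9, 7 had at least 3 Siglech UMIs, and these 7 held no Ccr9 and 1 UMI of Klk1, genes of plasmacytoid dendritic cells. A day 7 barcode among them held 14 Siglech, 31 P2ry12, 14 Tmem119, 7 Sall1, 39 Cx3cr1 and 11 Olfml3 UMIs and no Ccr2 or H2-Aa. A sham barcode held 7 Siglech, 39 Mrc1 and 10 Lyve1 UMIs, more Lyve1 than the 2 UMIs in all 100 members together. The other 2 of the 9 were day 3 barcodes of 32968 and 65601 UMIs with 2121 and 2201 UMIs of S100a8 and S100a9 per 10000.

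Against the 1185 other barcodes, both arms together were set apart by Fn1 (575 CPM in the arms and 4.69 CPM in the others, 123, 94.6 to 162), Vcan (105, 43.0 to 332), Ccl7 (77.8, 49.7 to 128) and Ifi205 (244, 41.1 to 9929). Of 11630 measured genes 13% were at least 2-fold higher and 11.3% at least 2-fold lower, which follows from a cut on measured genes. Lowest were the B cell factor Ebf1, with 1 UMI in the arms and 12010 in the others, and the neutrophil granule genes Ltf and Camp. The type I interferon response list stood at 8580 CPM in the macrophage arm, 3015 CPM in the monocyte and dendritic arm and 763 CPM in the other barcodes on day 3, against 1016, 536 and 310 CPM in sham.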

How the data were processed

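Raw UMI counts per gene and barcode were deposited; Cell Ranger 3.1.0 made them, per the file headers, and the submitters' processing notes name mm10 as the genome build. The sources used here do not give the rule by which barcodes were taken for cells; the lowest held 500 gene UMIs. The labels name the 10x Genomics 3' kit once as v2 and once as v3. The 4 pools ran together; the gene and the hashtag library share all 1556 barcodes, with 15753747 gene and 543123 hashtag UMIs, and 0 gene entries differ between the 2 deposited matrices.

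Barcodes with at least 200 genes and at most 10% mitochondrial UMIs were kept. A pool was assigned where the top hashtag had at least 10 UMIs and at least 80% of hashtag UMIs, and the lowest share among members was 92.7%. Barcodes with mixed hashtags were thus left out; no doublet caller was run, and doublets within 1 pool were not looked for. The members, the 20 marker and 16 gene lists and the cut ranges were chosen with earlier results of these data known. UMIs were summed per pool and arm or range and given as counts per 1000000 UMIs. A gene was measured with at least 20 UMIs in the compared groups together and called at 2-fold. Ratios carry exact conditional Poisson intervals, levels exact Poisson and shares exact Clopper-Pearson intervals, all at 95% and for counting error only; a group with no UMI was set to a floor of 3. Ratios to sham were formed where both pools had at least 5 cells.

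Named genes were the 5 highest and the 5 lowest per pool comparison (10 between arms, with the same direction in 4 pools) by the bound nearest 1, leaving out those with over 50% of the higher side's UMIs from 1 cell and mitochondrial, ribosomal, predicted, immunoglobulin and T cell receptor segment and sex-linked genes, plus 2 to 4 members of each list and the genes of the rule. Genes followed cell by cell were chosen after their values were seen. Gene positions are from GENCODE vM21, which holds 30934 of the 31053 gene IDs. The 16 alternatives listed at the outset and 4 added after seeing the data were run. Only the ratios and their intervals were checked on simulated data. Those were Poisson counts, the model of the intervals themselves, and they leave out spread between cells. The computations used scipy 1.17.1, numpy 2.4.6 and pandas 2.3.3 under Python 3.11.15, with figures by matplotlib 3.10.9. Some members of the gene lists are counted in the lists and are not reported here by name.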

Additional observations from a re-analysis of the deposited data

Results flagged for a closer look

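Of 92 kept barcodes with no single dominant hashtag, which no comparison uses, 4 met the gene rule, above the limit of 3 that a count of 0 allows. Of these, 2 met it for the macrophage arm and 2 for the monocyte and dendritic arm. All 4 carried at least 2 hashtags of 10 or more UMIs.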

How the results depend on the processing

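No paired analysis was possible because each condition is 1 pool and the labels give no replicate numbers. With 21 and 79 cells, counting error and single cells limit every comparison, and animals cannot be told apart within a pool.

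Over the alternatives run, the interferon median on day 3 ran from 2.29 to 3.06 on the log2 scale and the chemokine median from 2.81 to 4.26. The phagocytic receptor median ran from 0.90 to 2.32, and the cell cycle median from -2.86 to 0.01. The share ratios of the monocyte and dendritic arm ran from 0.757 to 1.12 on day 3, from 0.440 to 0.592 on day 7 and from 0.499 to 0.723 on day 14. On day 14 the interferon median ran from -1.19 to 0.92 and the MHC class II median from -4.00 to 0.37.

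Counts of genes at least 2-fold higher and lower moved with the minimum of UMIs. At 10 UMIs they were 631 and 521 on day 3, 494 and 903 on day 7, and 441 and 838 on day 14. At 50 UMIs they were 136 and 45 on day 3, 34 and 102 on day 7, 33 and 81 on day 14, and 384 and 822 between the arms; the number of genes tested changes with this choice. Without the top cell of each gene they were 86 and 1248 on day 7 and 60 and 1056 on day 14. With each cell weighted alike, 377 genes were lower on day 3. The following alternatives were chosen after seeing the data. Without the NK, progenitor and osteoclast gene-rich cells, 229 genes were lower on day 14, and 421 were higher and 887 lower between the arms. Against the remaining cells alone, 370 were higher and 764 lower in the macrophage arm.

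Some directions turned. With arm cuts of 10 UMIs, Ccl5 had ratios of 52.15 (9.14 to 2081) on day 3 and 26.87 (3.72 to 1178) on day 14. Gzma, at 0 UMIs in the sham pool with these cuts, was at least 8.96-fold higher on day 14. The day 7 median of phagocytic receptors, -1.09 over 4 genes, was 0.13 without the limit on S100a8 and S100a9 and 0.30 at 10 UMIs, and Top2a stood at 1.03 on day 7 without that limit. Between the arms, without the NK gene-rich cells Ccl5 stood at 5.07 (interval 0.944 to 27.2), and Klrd1, at 0 UMIs in the macrophage arm, had a ratio of at most 1.09, which gives no direction. Without the NK, progenitor and osteoclast gene-rich cells Mpo stood at 1.59 (interval 0.143 to 11.1) and Ccl5 at 3.17 (interval 0.590 to 17.0), and Nkg7, at 0 UMIs in the macrophage arm, had a ratio of at most 2.38, which again gives no direction. Against the remaining cells alone, which held 0 UMIs of Ccl5, its ratio was at least 2.65. Of the shares and counts that answer a comparison, 222 kept their size and direction under an alternative and 24 moved as given above.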
